A study of Mus musculus with 2 samples.

Results

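The microRNA loci described here are those of the mouse annotation (GENCODE M21, build mm10) whose symbol is Mir followed by a number of at least 1800 and below 4000. Mir3065, Mir3107, loci in the serotonin receptor gene Htr2c, loci in Sfmbt2 and loci in the interval of chromosome 12 that holds the cluster from Mir379 to Mir410 were left out. Of 2202 annotated loci 157 carried such a number, 4 were left out (Mir3065, Mir3072, Mir3107 and Mir1912), and 153 remained. The number in a symbol gives the order of naming. Whether a locus is restricted to rodents was not measured here, and at least Mir3064 and Mir3074-1 carry numbers that human loci carry too. The loci are spread over 20 chromosomes and share a naming period, not a family, a cell type or a function.

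Small RNA was sequenced from left cerebral cortex, with a labelled size range of under 30 (unit not stated). The tissue came from female B6CASTF1/J mice, hybrids of a B6 and a CAST parent, aged 14 days. There was 1 group, with no treatment in the labels, of 2 biological replicates, so values are levels within these libraries and no conditions could be compared. In the labels, replicate 1 is described with several females and replicate 2 with a single one. Both carry the same donor record, and pooling is not stated. Tests between the libraries cover counting error only, and differences between these samples may be technical in part.

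A microRNA gene is transcribed into a primary RNA that folds into a hairpin. The nuclease Drosha normally frees the hairpin, Dicer cuts out a short duplex, and 1 strand enters an Argonaute protein. Bases 2 to 8 of that strand, the seed, do most of the pairing with target RNAs. Some hairpins reach Dicer by other routes: a mirtron is a short intron that is folded after splicing, and some small nucleolar (snoRNA) and small Cajal body RNAs (scaRNA) are trimmed into fragments of microRNA size.

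The mature sequences of the most abundant loci are printed first because they show how little these loci have in common. They are from RefSeq (GRCm38.p6), 5′ to 3′, with the seed in capitals. The table held a mature sequence for 135 of the 153 loci. Counts are per locus, so the files do not say which arm (5p or 3p) the reads came from. Both arms are shown for loci with 2 listed arms, except Mir3102, for which the outer pair is shown.

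miR-1983: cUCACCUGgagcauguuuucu
miR-1839-5p: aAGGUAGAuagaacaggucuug
miR-3099-5p: cCAGCUUCcuuccagcccuug
miR-3099-3p: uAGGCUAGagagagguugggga
miR-1981-5p: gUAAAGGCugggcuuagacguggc
miR-1981-3p: cAUCUAACccuggccuuugac
miR-3102-5p: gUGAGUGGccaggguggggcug
miR-3102-3p: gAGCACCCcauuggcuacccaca
miR-1843a-5p: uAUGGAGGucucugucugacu
miR-1843b-5p: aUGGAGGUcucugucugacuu
miR-1843a-3p: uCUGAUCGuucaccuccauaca
miR-1843b-3p: cCGAUCGUuccccuccauac
miR-3475-5p: aAAUCAUGuacccccacagagg
miR-3475-3p: uCUGGAGGcacaugguuugaa
miR-3059-5p: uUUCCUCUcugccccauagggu
miR-3059-3p: cCUCUAGGgaagagaagguugg
miR-3093-5p: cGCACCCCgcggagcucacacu
miR-3093-3p: uGUGGACAccgugggagguugg
miR-3057-5p: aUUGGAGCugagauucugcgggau
miR-3057-3p: uCCCACAGgcccagcucauagc
miR-3547-5p: gUGGGAAGagggguggggcccggga
miR-3547-3p: uGAGCACCaccccucucucag

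No 2 of these strands share a seed. The 5p strands of Mir1843a and Mir1843b come closest. They hold 20 identical bases in a row, but miR-1843a-5p starts 1 base further upstream, so the same stretch gives 2 different seeds.

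Most of the 153 loci were at or near 0 in the cortex, and a handful supplied nearly all of their reads. Replicate 1 had 22010 reads at the 153 loci out of 2740332 assigned to a gene (0.803%, exact binomial 95% interval 0.793 to 0.814%) and replicate 2 had 28234 out of 3207941 (0.880%, 0.870 to 0.890%), a mean of 0.842 ± 0.0544% (SD, n = 2). As a share of gene-assigned reads it was thus higher in replicate 2 by more than counting error. Over the scaled library sizes of the tests below (2581326 and 3405545), the same reads were not a higher share in replicate 2. The labels state no molecular identifiers, so all such intervals and floors speak of counting error alone. Gene-assigned reads were 35.4% and 33.3% of all reads, and 40.6% and 37.9% mapped to several places and were counted at no locus. The 12 neuronal loci checked against the labelled tissue summed to 33386 and 42518 CPM in replicates 1 and 2. The 6 liver and muscle loci summed to 89.8 and 74.2 CPM. Of these Mir1a-1, Mir1a-2, Mir133a-1 and Mir133a-2 had 0 reads, but they are duplicate loci whose shared strands would not be counted, so these counts do not show absence.

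Detection required 10 reads or more per library. Of the 153 loci 41 were detected (26.8%), against 17.7% of all 2202 annotated loci. A further 41 had reads but missed the minimum, with at most 18 reads in a library. No read in either library was found at 71 (46.4%), against 65.8% of all loci. Of the 2202 loci 1021 carry Gm symbols, and of these 6 were detected (0.588%) and 95.2% had no read. They are included in the shares of all annotated loci given here, and shares without them were not counted. Loci numbered below 1800, with let-7, were detected at 51.6%, and 33.5% of them had no read. The 2 highest loci held 55.7% and 50.5% of the reads of the 153 in replicates 1 and 2, the 5 highest 81.2% and 78.2%, and the 9 highest 92.7% and 92.5%. Levels below are reads scaled to 1000000 gene-assigned reads (CPM).

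**Figure D1:**
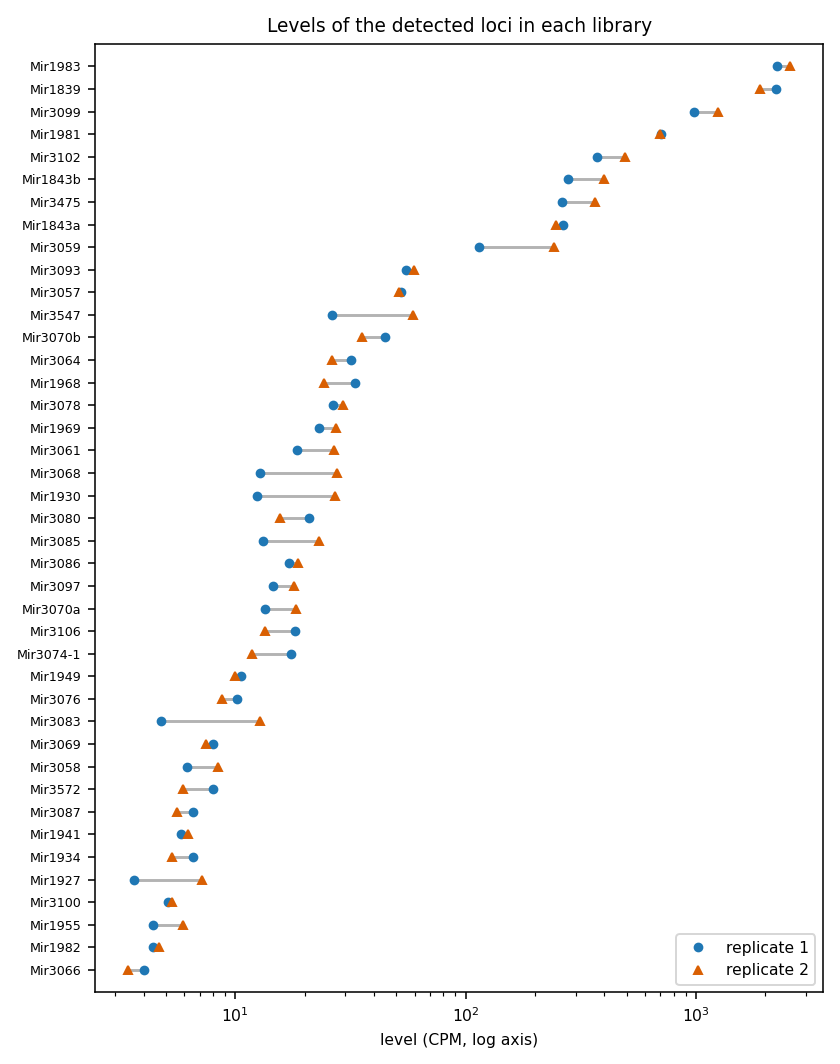
Level of each of the 41 detected loci (rows, ordered by mean) on a log axis in CPM, with a circle for replicate 1, a triangle for replicate 2 and a line joining them. Mir1983 and Mir1839 lead, 9 loci lie above 100 CPM, and 28 lie below 30 CPM.

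Mir1983 was the most abundant, with 6175 reads in replicate 1 and 8207 in replicate 2, or 2253 and 2558 CPM (mean 2406 ± 216, SD, n = 2). It ranked 65 among all 2202 loci. The locus (chromosome 13, 21896918 to 21897049, minus strand) lies in no annotated gene on its strand. Nuclear transfer RNA genes do not form a gene class in the annotation used, so overlap with them was not examined.

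Mir1839 had 6086 and 6061 reads, or 2221 and 1889 CPM (2055 ± 234), at rank 78. Mir1983 lay above Mir1839 in both libraries, narrowly in replicate 1. The gap between the lower Mir1983 value and the higher Mir1839 value was smaller than either SD.

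Mir3099 followed with 2673 and 4006 reads, or 975 and 1249 CPM (1112 ± 193), at rank 99. It lies in an intron of Usp29 (chromosome 7, 6803587 to 6803670, plus strand), a deubiquitinase gene of the imprinted Peg3 domain that is expressed from the paternal chromosome. With Mir1983 and Mir1839 it was among the 3 members within the 100 highest loci. Mir1981 had 1926 and 2235 reads, or 703 and 697 CPM (700 ± 4.33), the smallest SD among the 9 highest members. Mir3102 had 1023 and 1582 reads, or 373 and 493 CPM (433 ± 84.7).

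Mir3475 lies on the X chromosome (140310948 to 140311012, plus strand), with no host gene. Of 10 members on X it alone was detected, and the detected share of all annotated loci on X was not counted. Among the undetected ones, Mir1906-2, Mir1970, Mir3110, Mir3113, Mir3472 and Mir3473a share a stretch of 20 nt with another microRNA locus. Reads that fit several places are not counted there. Mir3475 had 720 and 1169 reads, or 263 and 364 CPM (314 ± 71.9). Mir3059, in an intron of the glycosyltransferase gene Mgat4c (chromosome 10, 101772692 to 101772772, plus strand), had 313 and 773 reads, or 114 and 241 CPM (178 ± 89.6). Its replicate 2 level was thus far above that of replicate 1, the widest gap among the 9 highest as a ratio, though not in CPM.

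Members that overlap a snoRNA or scaRNA gene on their own strand included Mir1839, next to Mir1983 the most abundant member. The group was defined after the annotation had been seen. Of 7 such loci 6 were detected: Mir1839, Mir1843b, Mir1843a, Mir3068, Mir1949 and Mir3069. In the whole annotation 13 of 24 such loci were (54.2%). The 7 held 34.8% of the members' reads in replicate 1 and 29.3% in replicate 2, most of them at Mir1839. Without Mir1839 the other 6 loci held 7.15% and 7.87%. These RNAs are known as guides for chemical modification of ribosomal and spliceosomal RNAs, and reads from their fragments cannot be told apart from microRNA reads in these counts.

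Mir1839 (chromosome 7, 81529916 to 81529988, plus strand) lies in an exon of the non-coding gene 2900076A07Rik and overlaps an annotated scaRNA gene of the same name. Mir1843a (chromosome 12, 80391613 to 80391677, minus strand) overlaps Scarna3b within Dcaf5, and Mir1843b (chromosome 1, 159340358 to 159340423, plus strand) overlaps Scarna3a within an intron of the ubiquitin ligase gene Cop1. Mir1843b had 764 and 1284 reads, or 279 and 400 CPM (340 ± 85.9). Mir1843a had 724 and 793 reads, or 264 and 247 CPM (256 ± 12.0). The paralogs were close in replicate 1 and apart in replicate 2. Their 5p strands share 20 bases, and a whole mature strand of Mir1843b recurs at Mir1843a. Reads of these stretches map to both loci and are not counted, so these counts are uncertain as levels of the mature strands.

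The other detected loci of the group were lower. Mir3068 (chromosome 12, within a snoRNA gene of the same name and an exon of Gm29362) had 35 and 89 reads, or 12.8 and 27.7 CPM. Mir1949 had 29 and 32 reads, and Mir3069, within Scarna13 in the host gene Snhg10, had 22 and 24 reads. Mir3084-1, which overlaps a snoRNA gene in Cbwd1, had 0 in both, and shares a stretch of 20 nt with another microRNA locus.

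Mirtron-like loci were the other group with a distinctive position. At 4 members both ends of the locus lay within 5 nt of the ends of an intron, and at all 4 the match was exact: Mir1981 in Marc2 (82 nt, chromosome 1, 184822407 to 184822488, minus strand), Mir3102 in Arhgef17 (104 nt, chromosome 7, 100882306 to 100882409, minus strand), Mir3547 in Baiap3 (88 nt, chromosome 17, 25245551 to 25245638, minus strand) and Mir1982 in Oaz1 (74 nt, chromosome 10, 80828797 to 80828870, plus strand). All 4 were detected, beside 12 of 23 such loci in the whole annotation. The 4 loci held 13.8% and 14.2% of the members' reads in replicates 1 and 2. Mir3102 and Mir1982 also lie in exons of other transcripts, and are counted as exonic below.

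The sequences printed above carry the marks of introns, which begin with GU and end with AG. The 5p strands of Mir1981, Mir3102 and Mir3547 begin with GU at the first base of the intron, and miR-3547-3p ends with AG at its last base. The 3p strands of Mir3102 and Mir1981 end 1 and 2 nt before the intron does. Mir1982 is printed to complete the group, with a 5p strand that starts 11 nt inside the intron and a 3p strand that ends with it.

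miR-1982-5p: uUGGGAGGguccuggggagg
miR-1982-3p: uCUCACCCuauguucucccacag

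The hosts are genes of unrelated function. Marc2 encodes a mitochondrial reductase, Baiap3 a protein of vesicle trafficking, and Oaz1 the antizyme that limits polyamine synthesis. Levels within the group spanned from 700 CPM for Mir1981 to 4.53 ± 0.210 CPM for Mir1982, which had 12 and 15 reads. Mir3547 had 72 and 189 reads, or 26.3 and 58.9 CPM (42.6 ± 23.1), and was again much lower in replicate 1.

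By position, 62 members lie in introns of protein-coding genes, 44 in exons of any gene, 3 in introns of non-coding genes only and 44 outside any gene on their strand. Detected were 17 of 62 (27.4%), 13 of 44 (29.5%), 3 of 3 and 8 of 44 (18.2%), beside 20.8%, 27.2%, 34.1% and 10.2% of all annotated loci in the same positions. These are counts over loci with no test. Members without a host still held 32.7% and 34.7% of the members' reads, most of them at Mir1983.

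**Figure D2:**
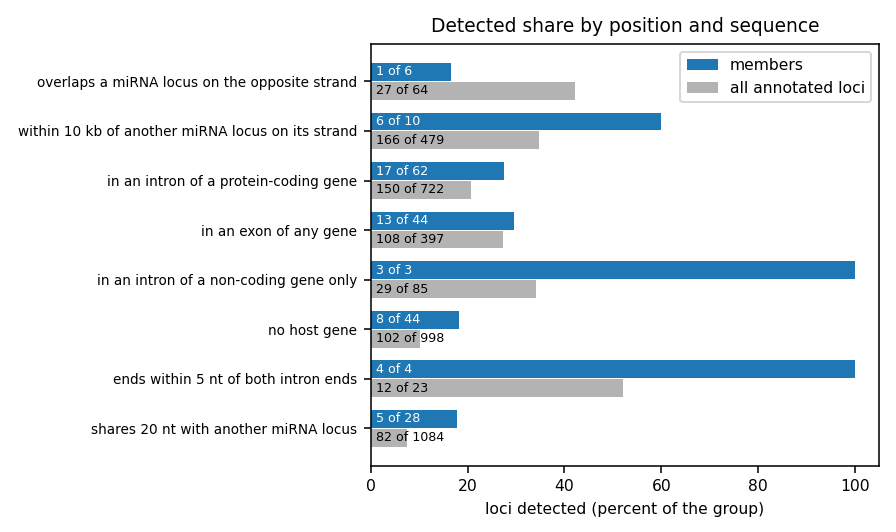
Share of loci detected (percent of each group, axis from 0) for the members in blue and for all annotated loci in grey, by position and sequence group, with the number detected of the number in the group in each bar. The groups overlap, and the members and the loci with Gm symbols are included in the grey bars. All 4 mirtron-like members and 5 of 28 members that share 20 nt with another locus were detected.

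Exonic members in coding sequence or UTRs held few of the members' reads, 1.65% and 1.54% at 25 loci. Of the 25 loci 5 were detected (20%), beside 26.8% of all members and 17.7% of all annotated loci. The share for all annotated loci so placed was not counted. Mir3057, in coding sequence of the adaptor gene Apba3, led them with 143 and 165 reads, or 52.2 and 51.4 CPM (51.8 ± 0.529). Mir3064 in the RNA helicase gene Ddx5 had 87 and 84 reads, Mir3061 in Ppp2ca, the catalytic subunit of phosphatase 2A, had 51 and 86, Mir3076 in the transketolase gene Tkt had 28 and 28, and Mir3572 in Cnot3, of the deadenylase complex, had 22 and 19. Fragments of the host mRNA and microRNA reads cannot be told apart in these counts.

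Of 10 members within 10 kb of another microRNA locus on their strand, 6 were detected (60%), beside 166 of 479 (34.7%) of all annotated loci so placed. Among them are neighbours of loci for miR-9 and miR-124, microRNAs known for their role in neurons. Mir3093 lies 341 bp from Mir9-1, in an intron of the non-coding gene Gm3764 (chromosome 3, 88215171 to 88215257, plus strand). It had 151 and 192 reads, or 55.1 and 59.9 CPM (57.5 ± 3.36), while Mir9-1 had 50 and 85 reads. Mir3078 lies 444 bp from Mir124a-1 in an exon of its host RNA Mir124a-1hg (chromosome 14, 64591185 to 64591271, plus strand). It had 73 and 94 reads, or 26.6 and 29.3 CPM (28.0 ± 1.88), while Mir124a-1 had 6 and 10 reads.

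At both sites the member thus had more reads than its neighbour in each library. The mature miR-9 and miR-124 are encoded at several loci, and reads that fit several places are not counted at Mir9-1 or Mir124a-1. The comparison therefore concerns uniquely placed reads only.

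Mir3070a and Mir3070b lie 561 bp apart in the imprinted Dlk1-Dio3 region (chromosome 12, 109587943 to 109588031 and 109588592 to 109588680, plus strand). The microRNAs of the region on this strand come from the maternal chromosome. The 5p strand of Mir3070a and Mir3070b is identical, and their 3p strands, printed here, share the seed and match at 20 of 22 positions.

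miR-3070-3p (Mir3070a): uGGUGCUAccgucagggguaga
miR-3070-2-3p (Mir3070b): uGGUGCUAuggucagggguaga

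Mir3070b had 122 and 114 reads, or 44.5 and 35.5 CPM (40.0 ± 6.35), and Mir3070a had 37 and 59, or 13.5 and 18.4 CPM (15.9 ± 3.46). Mir3070b was the higher in both libraries. Reads of the shared 5p strand map to both places, so these counts leave them out. Mir1906-1, in an exon of the maternally expressed Meg3 RNA of the same region, had 0 reads, and its mature sequence recurs at Mir1906-2 on the X chromosome, also at 0.

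Mir3064 lies 412 bp from Gm25994, which had 0 reads in both libraries. Mir1949 lies 2496 bp from Gm49347, which had 63 and 96 reads. Mir2861 and Mir3960, 12 bp apart in Cdk9, had 0 reads each.

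Members on the strand opposite another microRNA locus were few, and most had at most 1 read. Of 6 such loci only Mir3074-1 was detected, beside 42.2% of the 64 opposed loci in the whole annotation. Mir3074-1 lies opposite Mir24-1, in an intron of the Fanconi anaemia gene Fancc (chromosome 13, 63301199 to 63301283, minus strand). It had 48 and 38 reads, or 17.5 and 11.9 CPM (14.7 ± 4.01), against 115 and 157 reads for Mir24-1. In the column without strand it had 0 reads. The strands are printed to show the overlap: miR-3074-5p holds the reverse complement of miR-24-3p over 20 bases.

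miR-3074-5p: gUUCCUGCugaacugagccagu
miR-24-3p: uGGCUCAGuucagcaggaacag

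Both strands are also encoded at a further locus, Mir3074-2 with Mir24-2, where the member had 1 and 0 reads and Mir24-2 had 50 and 89. Reads that fit both loci are not counted, so the levels of mature miR-3074 and miR-24 are not known from these counts. Within the Dlk1-Dio3 region, Mir3544 had 0 and 1 reads against 8802 and 8761 for Mir337 on the other strand, and Mir3071, in the retrotransposon-like gene Rtl1, had 0 and 0 against 334 and 423 for Mir136. The limit set by a count of 0 is 3 reads, or 1.09 CPM (replicate 1) and 0.935 CPM (replicate 2). Mir3073a and Mir3073b, opposite each other in the annotation, had 1 and 0 reads in replicate 1 and none in replicate 2.

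**Figure D3:**
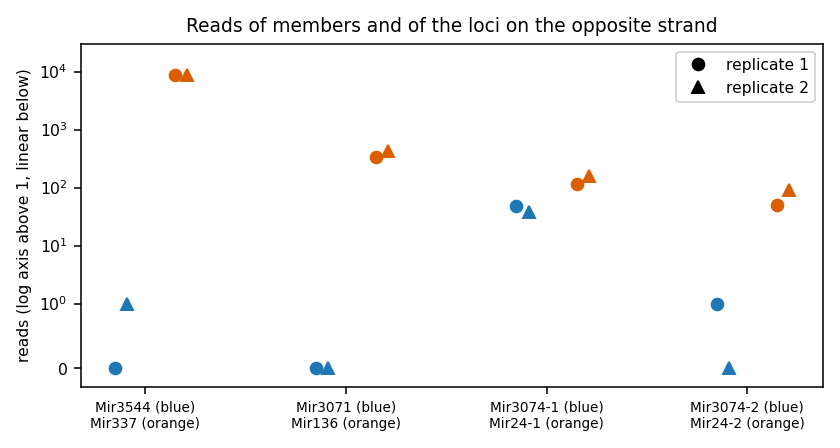
Reads in each library (vertical axis, logarithmic above 1 and linear below) at 4 members in blue and at the microRNA locus on the opposite strand in orange, with circles for replicate 1 and triangles for replicate 2. Mir3544, Mir3071 and Mir3074-2 have at most 1 read in a library, and Mir3074-1 is the closest to its partner.

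Mir3083 (chromosome 17, 26948056 to 26948119, minus strand) had reads on both strands with no annotated locus opposite. Its arms, printed here, hold a stretch of 11 bases that is reverse complementary between them. Arms of a hairpin pair with each other, and those of other loci were not compared in this way. Any link of the stretch to the opposite-strand reads was not tested.

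miR-3083-5p: aGGCUGGGaauauuucagagau
miR-3083-3p: uCCGAAACauucccagccuuua

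It had 13 and 41 reads on its own strand and 38 and 38 on the other. Elsewhere, 6 members without an opposite locus had opposite-strand reads, at most 3 in a library.

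The other detected members each had between 10 and 91 reads in a library. Mir1968, in an intron of Grtp1, had 91 and 78 reads, or 33.2 and 24.3 CPM. Mir3080 in Tcf20 had 57 and 50 reads, Mir3106 in Csmd1, a synaptic complement regulator gene, had 50 and 43, and Mir1930 in Ube2g2 had 34 and 87. Mir3066, in an intron of Nol10, was the lowest detected, with 11 reads in each library, or 4.01 and 3.43 CPM (3.72 ± 0.414). Just under the minimum stood Mir3060 with 12 and 8 reads and Mir1945 with 6 and 18.

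Seeds held also by microRNAs outside the 153 were found at 26 loci. Of these 6 were detected (23.1%), beside 26.8% of the 153 and 17.7% of all annotated loci. Their partners differ widely in level. Mir1983 has the seed of miR-412-3p (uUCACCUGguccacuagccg) of the Dlk1-Dio3 region. Mir412 had 2210 and 2943 reads, while Mir702, with the seed of miR-3102-5p, had 654 and 1461, and Mir96, whose 3p seed is that of miR-3475-5p, had 0. Within the members, miR-3064-5p and miR-3085-3p share a seed although their loci are on chromosomes 11 and 19.

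miR-3064-5p: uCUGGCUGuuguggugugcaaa
miR-3085-3p: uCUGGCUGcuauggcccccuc

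Mir3064 had 31.7 and 26.2 CPM and Mir3085 13.1 and 23.1 CPM, so levels of the 2 loci came close in replicate 2 only. Further seeds of abundant loci or families sit at members with few or no reads. Mir1947 (13 and 5 reads) and Mir3473d (0 and 4 reads) have the seed of miR-674-5p. Mir1943 (10 and 3 reads) has that of miR-149-3p. Mir674 had 7636 and 8633 reads, and Mir149 had 35770 and 47057. Mir1961 has the seed of let-7 and the first 13 bases of miR-1961 recur in let-7i-5p, and Mir1928 has the seed of miR-221 and miR-222.

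miR-1961: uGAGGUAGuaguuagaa
let-7i-5p: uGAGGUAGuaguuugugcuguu
miR-1928: aGCUACAUugccagcuc
miR-221-3p: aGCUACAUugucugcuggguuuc

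Mir1961 and Mir1928 had 0 reads in both libraries, whereas Mirlet7i had 255035 and 207679 and Mir221 had 8204 and 5423. The listed mature sequences of both members are 17 nt long, shorter than their relatives.

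An exact copy, on either strand, was found in the transcripts of a gene elsewhere for 4 of 37 detected and 11 of 98 undetected members with a RefSeq mature sequence. The numbers of such genes differed: at most 3 for a detected member, but 100 or more for 4 undetected ones. These were Mir3470b (1067 genes), Mir3473b (743 genes), Mir3473a (283 genes) and Mir3471-1 (112 genes), all with 0 reads. Reads of such sequences map to several places and cannot enter the counts, so 0 reads do not show absence.

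miR-3470b: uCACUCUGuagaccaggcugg
miR-3473a: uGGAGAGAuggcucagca
miR-3473b: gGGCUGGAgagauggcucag
miR-3471: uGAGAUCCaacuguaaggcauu

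The miR-3473a and miR-3473b strands overlap by 16 bases. Of the Mir3473 loci a to g, Mir3473g had 2 and 8 reads and Mir3473d 0 and 4, and the others had 0. Over all members, 28 (18.3%) share a stretch of 20 nt with another microRNA locus, against 49.2% of all loci. Of the 28 loci 5 were detected (17.9%), beside 82 of 1084 (7.56%) of all loci that share such a stretch. Of these 1084 loci 815 carry Gm symbols, and only 6 of all 1021 Gm loci were detected. The detected share without Gm loci was not counted. Such a stretch was found at 38.8% of loci below 1800, with let-7, and at 5.32% of those from 5000 to below 9000. Hairpin stability overlapped between detected and undetected loci. The median minimum free energy was -0.40 kcal/mol per nt for 37 detected hairpins (-0.72 to -0.30) and -0.43 for 90 undetected ones (-0.77 to -0.19), and GC content had medians of 53.7% and 51.5%.

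Set among the other naming ranges, the 153 loci lay between the earlier and the later names. Loci numbered below 1800, with let-7, were detected at 282 of 547 (51.6%) and held 98.8 ± 0.0832% of reads (n = 2). Loci numbered from 5000 to below 9000 were detected at 56 of 470 (11.9%) and held 0.240 ± 0.0188%, and loci with Gm symbols at 6 of 1021 (0.588%). The order of these read shares was the same in both libraries. The median level of detected loci was 419 CPM for the earlier names, 18.2 CPM for the 153 and 8.82 CPM for those from 5000. No test was made over loci, which are not replicates.

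Between the libraries, a two-sided exact binomial test of each locus's reads (library sizes scaled by trimmed mean of M values, Benjamini-Hochberg adjustment over all 389 detected loci) passed at an adjusted p of 0.05 for 15 of the 41 members, 36.6% against 58.4% of all detected loci. It covers counting error only, and describes this pair of libraries. Higher in replicate 2 were 9 of the 41 (22.0%, against 28.8% of all detected loci), and lower were 6 of the 41 (14.6%, against 29.6%). The split was 11 higher and 1 lower, Mir1839, when scaled by library total, which moves the median log2 ratio of all detected loci from -0.0098 to 0.16. Members were also lower in level (medians 18.2 CPM and 149 CPM), and the part of depth in the smaller share was not tested. Markers of other cell types moved between the libraries too. In replicates 1 and 2, the 3 oligodendrocyte loci summed to 4275 and 1477 CPM, the 3 endothelial and mural loci to 21215 and 13607 CPM, and the 2 erythroid loci to 952 and 564 CPM. The 2 choroid plexus loci summed to 447 and 899 CPM, the 5 epithelial loci to 87.6 and 169 CPM, and the 5 microglial and leukocyte loci to 1563 and 1888 CPM. Loci within a list could move opposite ways. Log2 ratios of replicate 2 over replicate 1 were 0.87 at Mir150 but -0.72 at Mir155 (microglial and leukocyte). They were 0.36 at Mir145a but -1.01 at Mir126a (endothelial and mural), and 1.32 at Mir128-1 but -1.07 at Mir138-1 (neuronal). Detected were 8 of 12 neuronal, 4 of 5 microglial and leukocyte, 3 of 5 epithelial and 1 of 2 choroid plexus loci. The part of these marker differences in those of the members was not tested.

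**Figure D4:**
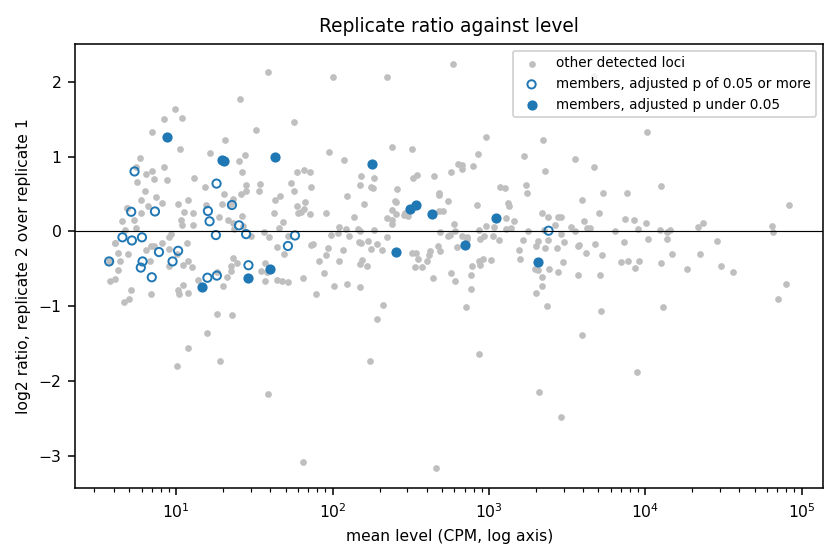
Log2 ratio of replicate 2 over replicate 1 (vertical axis) against the mean level in CPM (log axis) for the 389 detected loci, with members in blue, filled where the adjusted p of the exact binomial test was under 0.05, and other loci in grey. The members spread with an SD of 0.51 around a median of -0.053.

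The ratios of the 41 members had a median of -0.053 and an SD of 0.51 on the log2 scale, beside -0.0098 and 0.70 over all detected loci. Within 1.5-fold lay 29 members (70.7%), beside 67.4% of all detected loci. The largest ratios were those of Mir3083 (log2 ratio 1.26, adjusted p = 0.0104 by the exact binomial test), Mir3547 (0.99, 6.64e-07), Mir1930 (0.96, 0.00179), Mir3068 (0.95, 0.00154) and Mir3059 (0.90, 1.37e-21). Mir3083 was the only member past the test with at least a 2-fold difference, beside 11.3% of all detected loci, and in the column without strand its ratio was 0.23 (adjusted p = 0.521 by the exact binomial test).

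At the other end stood Mir3074-1 (-0.74, 0.0379), Mir1968 (-0.62, 0.00976), Mir3106 (-0.62, 0.0736), Mir3572 (-0.61, 0.275) and Mir3080 (-0.59, 0.0653), of which Mir3074-1 and Mir1968 passed the exact binomial test. Both missed it when scaled by library total, at -0.56 and -0.45. So did Mir1981, whose ratio moved from -0.19 to -0.013, and Mir1843a, from -0.27 to -0.096. Mir1839 had a ratio of -0.41 (adjusted p = 3.36e-53 by the exact binomial test) and Mir1983 of 0.011 (0.762), so the 2 most abundant members did not move together. Mir1843b (0.35) and Mir1843a (-0.27) also went opposite ways, each past the test, in counts that leave out reads mapping to both loci.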

How the data were processed

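The 2 cortex libraries form 1 group. Each deposited table lists whole-number counts of reads for microRNA genes on build mm10 with GENCODE M21, as the file lists deposited beside them say. Which aligner, counter and trimming the authors used is not given in the sources read. The RNA strand column was used, which was recognised from the values. Library sizes exclude the 4 leading rows without a gene: unmapped reads (18.1% and 22.8%), reads mapped to several places (40.6% and 37.9%), reads on no feature (5.93% and 6.03%) and ambiguous reads (0%). This leaves 2740332 and 3207941 reads.

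All 2202 identifiers matched M21. RefSeq hairpins were found for 127 members, each at the M21 coordinates. Host genes are on the same strand, with exons ranked before introns and protein-coding genes first. Copies of mature sequences were searched in M21 transcripts on both strands. Hairpins were folded with ViennaRNA 2.7.2. Scaling used edgeR 4.0.16 (TMM) on the 389 loci with at least 10 reads in each library, and tests used SciPy 1.17.1. They were tested on simulated counts. Named members were the 12 highest, the 5 largest and 5 smallest ratios, and detected members that are opposed, clustered or mirtron-like. Other members named in the text (undetected ones, the snoRNA and scaRNA group, exonic loci and seed relatives) were chosen after their values were seen. The members, lists and rules were chosen with earlier results of these data known. Alternatives were other minima, the column without strand, DESeq2 1.42.0 size factors, library totals, all reads as the denominator, and leaving out each replicate.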

Additional observations from a re-analysis of the deposited data

Results flagged for a closer look

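Mir3083 had 38 reads in replicate 1 and 38 in replicate 2 on the strand opposite to the annotated locus, in a column that the comparisons above do not use. No microRNA locus is annotated there. Among the 2138 loci with no opposite locus, 5 had over 3 such reads in each library (Mir3083, Mir34b, Mir5620, Mir7654 and Mir8105). The source of these reads was not tested.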

How the results depend on the processing

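The number of detected members was 19 with at least 50 reads in each library and 64 with at least 1, and 44 to 45 when each replicate was left out. Their share of reads was 0.903% in the column without strand, where the total is smaller, 0.289% of all reads, and 0.803 to 0.880% when each replicate was left out. Members lower in replicate 2 numbered 1 when scaled by library total, against 6. The other 5 settings gave 5 to 7 lower and 6 to 10 higher. Among single loci, the ratio of Mir3093 turned from -0.053 to 0.12 when scaled by library total, without passing the test either way (adjusted p 0.808 and 0.561 by the exact binomial test). Mir1983 passed it under that scaling, at 0.18, and under no other tried for its ratio. DESeq2 size factors changed no call for the 20 loci with a tested ratio. With 2 libraries, leaving out either replicate leaves the level of the other, which says nothing about stability. In the column without strand 4 of the 12 highest members moved by more than 1 SD (Mir1981, Mir1843a, Mir3093 and Mir3057). Their reads were the same in both columns, and the CPM rose because the column total is smaller. No paired analysis was possible because the labels give 1 group. At the depth of these libraries, loci below 1.09 CPM in replicate 1 and 0.935 CPM in replicate 2 could not be told from 0.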
